A study of Rattus norvegicus with 12 samples.

Results

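The choroid plexus consists of an epithelium that secretes cerebrospinal fluid and of a core of connective tissue with fibroblasts and blood vessels. Fibroblasts lay down and remodel the extracellular matrix, a network of collagens, elastic fibres and proteoglycans whose secreted modulators set how fibres assemble and how growth factors reach the cells. Genes of these stromal fibroblasts and of their matrix were followed here in the choroid plexus of rats sampled in the light phase or in the dark phase. The 10 genes proposed were THBS2, SCX, DCN, OGN, MGP, PDGFRA, COL1A1, COL1A2, COL3A1 and SPARC. Genes were found in the files, which list 32883 Ensembl genes, only where a gene table of the study pairs the symbol with an identifier. This held for 7 of the 10, and the collagen genes COL1A1, COL1A2 and COL3A1 had no pairing and were dropped. SPARC, MGP, DCN, OGN and PDGFRA were paired through a table sorted by expression level. THBS2 and SCX were paired only through the table of genes that the study called different between the phases. Their difference between the phases is therefore what chose them, and it is given as a description with no test.

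The study asked whether choroid plexus transcripts differ with the light–dark cycle. Male Sprague-Dawley rats aged 9 weeks, kept on equal light and dark hours and anaesthetised with xylazine and ketamine, gave the choroid plexus of the lateral ventricles and the fourth ventricle at zeitgeber time 8 h (light phase, n = 6) or 20 h (dark phase, n = 6). Each rat gave 1 library of paired-end RNA-seq reads, and expression is given in TPM (transcripts of a gene among all transcripts, scaled for length, so that genes can be compared with each other). As the tissue was not sorted into cell types, fewer cells of a type and less RNA per cell cannot be told apart in any value below.

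Read counts were not in the files used here, so depth in reads is unknown, and precision was taken from the spread between rats. Depth relative to the mean library, read from the steps in low FPKM values of 271 genes, was 0.877 to 1.39 in light-phase rats and 0.905 to 1.10 in dark-phase rats. In a limma fit over 12513 genes that averaged 1 TPM or more, 2216 genes were called at a false discovery rate (FDR) below 0.05, which is 17.7% (9.00% as higher in the dark phase, 8.71% as higher in the light phase). With unscaled TPM 1220 genes were called higher in dark-phase rats and 836 in light-phase rats. Among the 1997 genes paired through the level table, 23.7% were called, 8.61% as higher in dark-phase rats and 15.1% as higher in light-phase rats. Genes paired by level are among the more abundant, as the members, related and marker genes so paired averaged 43.0 TPM (TAGLN) or more. Those paired only as called genes averaged 44.4 TPM (SCX) or less. A gene without an identifier may thus be less abundant and uncalled, and its level was not read. The phases did not overlap in TPM for 8.26% of all genes tested and for 13.4% of those paired by level. Light-phase replicate 2 stood apart from the other light-phase rats, with the highest MGP and the highest levels of several vessel, mural and blood transcripts, so results that rest on it are given with and without it.

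The tissue label was checked against the markers. The epithelial transcript TTR, the transporter of thyroid hormone that the choroid plexus makes in bulk, was the most abundant gene, with 253700 to 304200 TPM in the light phase. All 12 epithelial markers listed were paired by level and summed to 265600 to 316100 TPM in light-phase rats and 299400 to 323400 TPM in dark-phase rats. Of them 4 were called higher in dark-phase rats and 2 in light-phase rats, beside 8.61% and 15.1% of all genes paired that way. None of the 26 further fibroblast identity genes listed had an identifier, and of 11 fibrillar collagens only COL5A3 had one. It was paired as a called gene, with 0.34 to 0.96 TPM in 11 rats and 2.09 TPM in light-phase replicate 2. The fibroblast label therefore rests here on the 7 genes themselves. All 7 were measured well above the filter in every rat, from a lowest value of 18.4 TPM for SCX to a highest of 1607 TPM for MGP.

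By mean level over both phases the order was MGP with 774.6 TPM, SPARC with 765.3 TPM, DCN with 118.1 TPM, OGN with 76.5 TPM, PDGFRA with 65.3 TPM, SCX with 44.4 TPM and THBS2 with 42.1 TPM. The order of MGP and SPARC turned without light-phase replicate 2, with means of 698.8 and 745.0 TPM over the other 11 rats and ranks of 123 and 111 among all genes, against 105 and 109 with it. THBS2, at rank 2425, was the lowest of the 7 over both phases, and in the dark phase alone its mean of 62.4 TPM lay above the 60.0 TPM of SCX. Neighbours in this order overlapped in their ranges over the 12 rats, except SPARC and DCN, as every rat had at least 626.4 TPM of SPARC and at most 155.4 TPM of DCN.

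**Figure D1:**
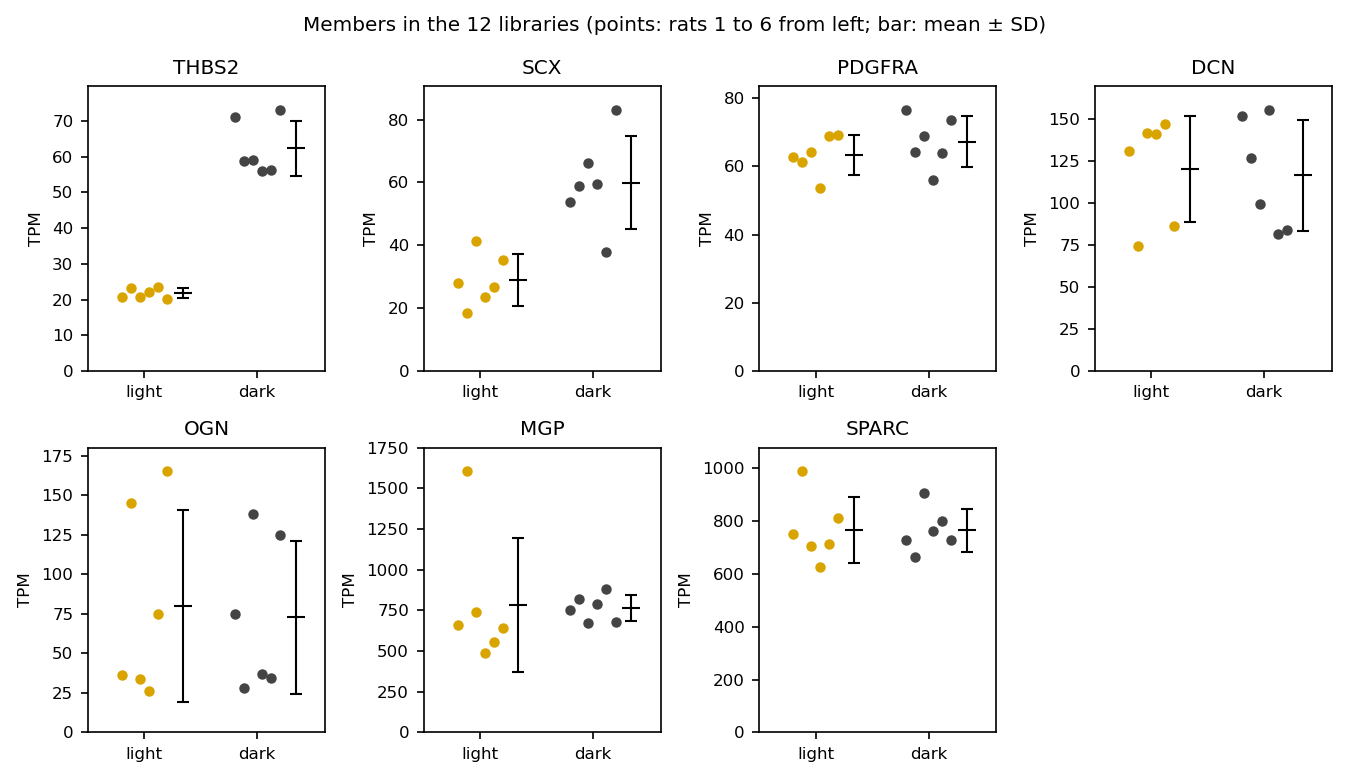
Level in TPM (linear axis from 0) of the 7 genes in each rat, light phase on the left and dark phase on the right of each panel, with rats 1 to 6 from left to right and the mean ± SD (n = 6) beside them. THBS2 has no overlap between the phases, SCX overlaps in 1 dark-phase rat, OGN spreads widely within both phases, and MGP has a single light-phase rat at 1607 TPM.

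RefSeq promoter sequences of the GRCr8 build were at hand for 3 of the 7 genes, OGN, PDGFRA and SPARC. The 250 bases before the start of each of these 3 are shown, and all lie on the minus strand. Capitals mark matches to the motifs searched. The windows are chr17:15258996-15259245 for OGN, chr14:33408517-33408766 for PDGFRA and chr10:40038817-40039066 for SPARC.
OGN: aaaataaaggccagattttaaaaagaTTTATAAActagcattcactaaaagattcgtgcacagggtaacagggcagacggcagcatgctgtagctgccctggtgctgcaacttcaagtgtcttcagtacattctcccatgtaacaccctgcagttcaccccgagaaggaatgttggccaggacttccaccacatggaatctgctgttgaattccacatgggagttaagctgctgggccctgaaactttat
PDGFRA: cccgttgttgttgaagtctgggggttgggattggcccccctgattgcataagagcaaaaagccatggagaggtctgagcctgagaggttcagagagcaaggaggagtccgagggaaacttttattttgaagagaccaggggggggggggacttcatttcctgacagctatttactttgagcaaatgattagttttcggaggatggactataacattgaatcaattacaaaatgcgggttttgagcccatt
SPARC: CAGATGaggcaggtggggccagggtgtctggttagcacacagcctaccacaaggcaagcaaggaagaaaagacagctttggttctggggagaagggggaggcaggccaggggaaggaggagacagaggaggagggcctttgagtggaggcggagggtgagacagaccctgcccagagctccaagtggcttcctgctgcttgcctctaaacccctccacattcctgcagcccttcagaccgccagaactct
In OGN the capitals cover the core promoter hexamer TATAAA and its reverse complement, which overlap near the far end of the window, and 12.9% of 33469 rat promoter windows of this length hold this motif on either strand. In SPARC they mark CATCTG read on the other strand. This hexamer and the alternative form CAGCTG were searched as the E-box type bound by scleraxis, and 24.3% of windows hold at least 1 of them. The PDGFRA window held no match. None of the 3 windows held the clock E-box CACGTG (5.59% of windows), the D-box spelled TTATGTAA or, in the form searched beside it, TTACGTAA (0.932%), the RORE core TAGGTCA (2.26%), the GC box GGGCGG (30.5%) or the SMAD palindrome GTCTAGAC (0.173%), all searched on both strands. GC content was 46.0% in OGN, 47.2% in PDGFRA and 60.0% in SPARC, beside a median of 51.2% over all windows. A match is a run of letters and not a shown binding site.

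THBS2 encodes thrombospondin 2, a matricellular glycoprotein that binds matrix metalloproteinase 2 and takes part in collagen fibre assembly and in the inhibition of vessel growth. In the light phase its level was 20.6, 23.1, 20.7, 22.2, 23.5 and 20.2 TPM in replicates 1 to 6, and in the dark phase it was 71.0, 58.8, 59.0, 56.0, 56.2 and 73.3 TPM. All 6 dark-phase rats lay above the highest light-phase rat, with the gap between them running from 23.5 to 56.0 TPM. The mean was 21.7 ± 1.42 TPM in light-phase rats and 62.4 ± 7.68 TPM in dark-phase rats (SD, n = 6), a ratio of 2.87. The log2 difference, dark minus light, was 1.47 with a standard error of 0.07. Within the light phase the rats were close together, with an SD of 0.10 in log2 units beside a median of 0.13 over all genes tested.

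SCX encodes scleraxis, a basic helix-loop-helix transcription factor of tendon and other fibrous connective tissue that acts on collagen genes. Its light-phase levels were 28.0, 18.4, 41.4, 23.5, 26.7 and 35.2 TPM, and its dark-phase levels were 53.8, 59.0, 66.3, 59.6, 38.0 and 83.2 TPM. The phases overlapped, as dark-phase replicate 5 lay below light-phase replicate 3, and the other 5 dark-phase rats lay above every light-phase rat. The mean was 28.9 ± 8.26 TPM in light-phase rats and 60.0 ± 14.9 TPM in dark-phase rats (SD, n = 6), a ratio of 2.08. The log2 difference was 1.03 with a standard error of 0.20, and it was 0.90 without light-phase replicate 2, which held the lowest SCX. SCX varied more than THBS2 in the light phase, with SDs of 0.42 and 0.10 in log2 units.

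PDGFRA encodes platelet-derived growth factor receptor alpha, a receptor tyrosine kinase used as a surface marker of fibroblasts. It was 62.8, 61.4, 64.3, 53.6, 68.9 and 69.1 TPM in light-phase rats and 76.7, 64.3, 69.0, 56.0, 63.9 and 73.6 TPM in the dark phase. The phases overlapped over most of their range, with replicate 4 the lowest in both. The mean was 63.3 ± 5.74 TPM in light-phase rats and 67.2 ± 7.48 TPM in dark-phase rats (SD, n = 6). Dark minus light, PDGFRA differed by 0.06 on the log2 scale (standard error 0.07, limma FDR 0.62), with a 95% interval from a ratio of 0.933 to a ratio of 1.16. The interval thus leaves room for a small difference, and a change of the size seen in THBS2 or SCX lies outside it.

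Ratios taken within a library do not depend on scaling between libraries. The ratio of THBS2 to PDGFRA was 0.292 to 0.415 in light-phase rats (median 0.335) and 0.855 to 1.00 in the dark phase (median 0.920). In light-phase rats PDGFRA was thus the more abundant transcript throughout, and in dark-phase rats the levels were nearly equal. The ratio of SCX to PDGFRA was 0.2998 to 0.644 in light-phase rats (median 0.442) and 0.594 to 1.13 in the dark phase (median 0.939), and overlapped in 1 dark-phase rat, replicate 5. Against SPARC, THBS2 stood at 0.0234 to 0.0355 in the light phase and at 0.0652 to 0.101 in the dark phase. These values describe the contrast that chose THBS2 and SCX, and no test was made on them.

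**Figure D2:**
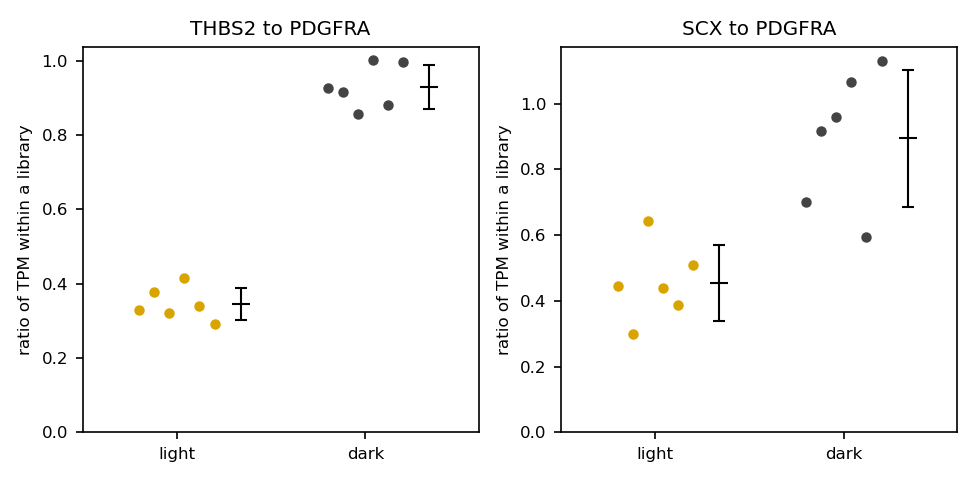
Ratio of TPM within each library (linear axis from 0) of THBS2 and of SCX to PDGFRA, by phase, with rats 1 to 6 from left to right and the mean ± SD (n = 6) beside them. THBS2 to PDGFRA does not overlap between the phases (highest light-phase rat 0.415, lowest dark-phase rat 0.855), and SCX to PDGFRA does.

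SPARC encodes osteonectin, a collagen-binding matricellular glycoprotein. It was 752.1, 989.0, 705.7, 626.4, 712.8 and 812.2 TPM in light-phase rats and 728.5, 663.1, 905.7, 762.9, 798.4 and 727.2 TPM in the dark phase. The ranges coincided nearly in full, with light-phase replicate 2 the highest of all 12 rats. The means were 766.4 ± 124.9 TPM and 764.3 ± 82.5 TPM (SD, n = 6), a ratio of 0.997. For SPARC the log2 difference was -0.02 (standard error 0.09, limma FDR 0.91), with an interval from a ratio of 0.863 to a ratio of 1.13.

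DCN encodes decorin, a small leucine-rich proteoglycan that coats collagen fibrils and binds transforming growth factor beta. Its levels were 130.7, 74.1, 141.4, 140.6, 146.8 and 86.3 TPM in light-phase rats and 151.5, 126.6, 98.9, 155.4, 81.6 and 83.8 TPM in the dark phase. Light-phase replicates 2 and 6 lay well below the other 4 light-phase rats, which kept between 130.7 and 146.8 TPM, and the dark-phase rats were spread from 81.6 to 155.4 TPM. The means were 120.0 ± 31.5 TPM in light-phase rats and 116.3 ± 33.0 TPM in dark-phase rats (SD, n = 6). For DCN the log2 difference was -0.07 (standard error 0.22, limma FDR 0.86), and its 95% interval ran from a ratio of 0.683 to a ratio of 1.33.

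OGN encodes osteoglycin (mimecan), another leucine-rich proteoglycan of connective tissue that regulates collagen fibre thickness. It was 36.3, 144.9, 33.7, 26.3, 74.8 and 165.4 TPM in light-phase rats and 74.9, 28.0, 138.1, 36.7, 34.4 and 125.1 TPM in the dark phase. Each phase held rats near 30 TPM and rats above 120 TPM, so that the phases overlapped over nearly the whole range. The means were 80.2 ± 60.8 TPM and 72.9 ± 48.6 TPM (SD, n = 6). For OGN the log2 difference was -0.08 (standard error 0.53, limma FDR 0.94), and the 95% interval, from a ratio of 0.426 to a ratio of 2.10, is the widest of the 5 genes paired by level.

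MGP encodes matrix Gla protein, a secreted inhibitor of mineralisation made by vascular and connective tissue cells. It was 663.2, 1607.3, 738.2, 487.1, 556.4 and 642.3 TPM in light-phase rats and 752.1, 821.4, 674.1, 790.7, 880.2 and 681.6 TPM in the dark phase. Light-phase replicate 2 had the highest level of all rats, and 4 of the other 5 light-phase rats lay below every dark-phase rat. The means were 782.4 ± 413.4 TPM in light-phase rats and 766.7 ± 80.6 TPM in dark-phase rats (SD, n = 6). The log2 difference was 0.06 (standard error 0.21, limma FDR 0.87, 95% interval from a ratio of 0.761 to a ratio of 1.44). Without light-phase replicate 2 it was 0.28, with an FDR of 0.06.

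Of the 5 genes paired by level, 0 were called in either direction, where 23.7% of all genes paired that way were. Their limma FDR values ran from 0.62 for PDGFRA to 0.94 for OGN, and unadjusted p was 0.43 or higher. A library's total FPKM divided by its total TPM, a value that moves with the mean length of its transcripts, was 0.953 to 0.987 in light-phase rats and 0.934 to 0.960 in dark-phase rats. With this FPKM to TPM ratio added to the fit the 5 genes were not called either, and its part in the phase differences cannot be told apart from the phase where the ranges part.

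**Figure D3:**
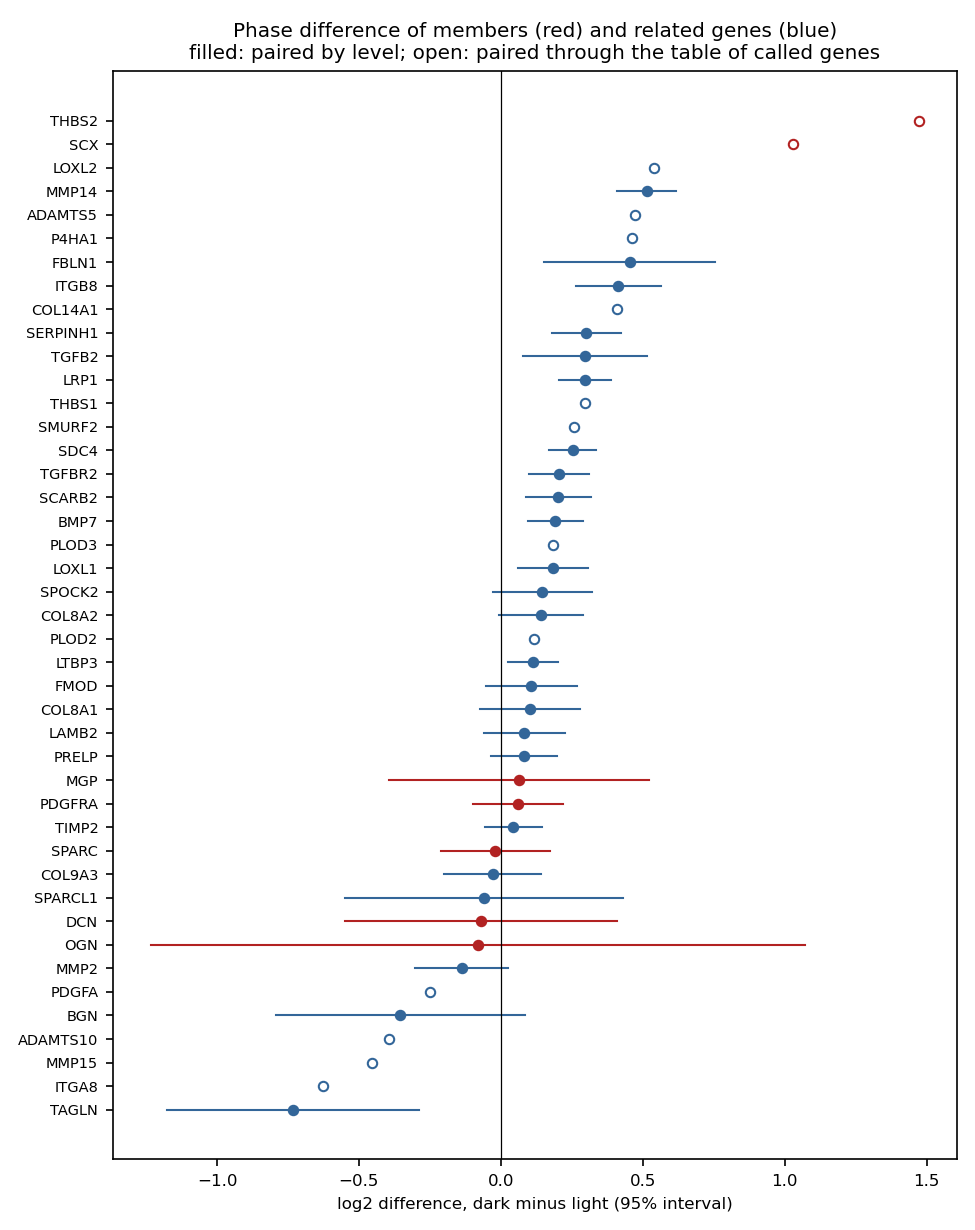
Log2 difference of expression, dark minus light, in the limma fit over 12 rats, for the 7 genes (red) and related genes named in the text (blue). Filled points with their 95% interval (bars) are genes paired through the table sorted by level, and open points without bars are genes paired through the table of called genes, which were chosen by this contrast; THBS2 at 1.47 and SCX at 1.03 lie farthest to the right, and OGN has the widest interval.

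The 7 genes differed widely in their spread between rats. OGN had an SD of 1.11 in log2 units in light-phase rats and 0.98 in dark-phase rats, and only 1.38% and 1.53% of the genes tested varied as much. DCN had SDs of 0.45 and 0.42 (7.62% and 6.31% of genes varied as much) and SCX had SDs of 0.42 and 0.37 (8.63% and 8.26%). THBS2 had SDs of 0.10 and 0.16, PDGFRA 0.13 and 0.15, and SPARC 0.19 and 0.15, beside medians of 0.13 and 0.12 over all genes. MGP changed its place with the phase, with an SD of 0.57 in light-phase rats and 0.16 in dark-phase rats, and the light-phase SD was 0.20 without replicate 2. The light-phase SD of SPARC was 0.12 without the same rat, and the dark-phase SD of SCX was 0.23 without replicate 5.

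The proteoglycans OGN and DCN were compared rat by rat. Light-phase replicates 2 and 6 had OGN at 144.9 and 165.4 TPM with DCN at 74.1 and 86.3 TPM, and dark-phase replicates 3 and 6 had OGN at 138.1 and 125.1 TPM with DCN at 98.9 and 83.8 TPM. The ratio of OGN to DCN ran from 0.187 to 1.96 in the light phase and from 0.221 to 1.49 in the dark phase, and it was above 1 in these 4 rats alone. Dark-phase replicate 5 was low in both, with OGN at 34.4 TPM and DCN at 81.6 TPM. In the light phase Pearson's r of OGN and DCN was -0.83 over 6 rats (exact permutation p = 0.05, Spearman's rho -0.77 with p = 0.10), and without replicates 2 and 6 it was 0.24, so that the relation rests on those rats. In the dark phase r was -0.34 (exact permutation p = 0.47, rho -0.09 with p = 0.92).

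**Figure D4:**
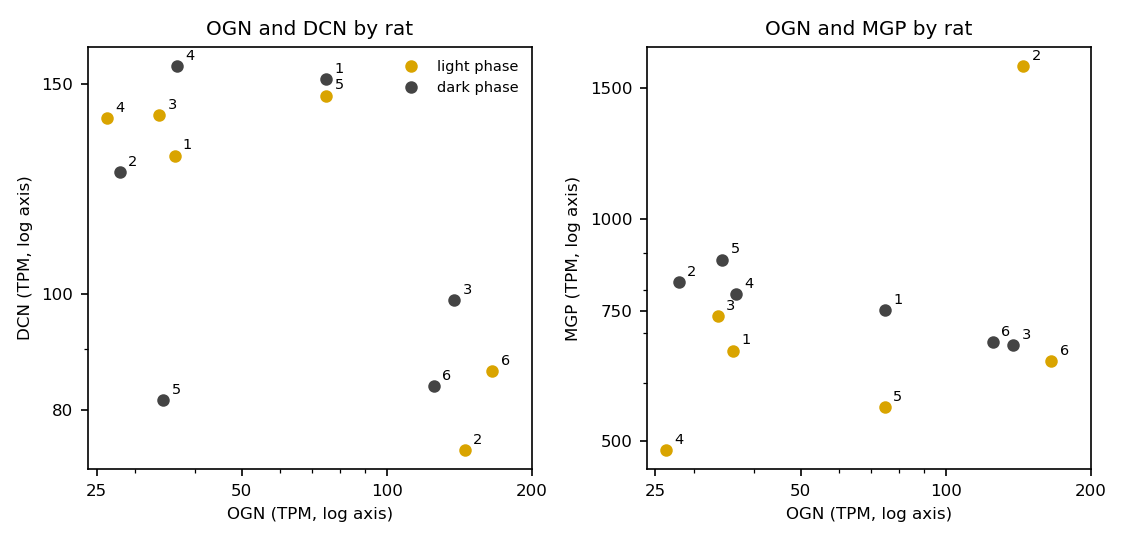
OGN (x axis) against DCN (left) and MGP (right) in each rat, in TPM on log axes, with the replicate number beside each point. Light-phase replicates 2 and 6 and dark-phase replicates 3 and 6 combine OGN above 120 TPM with DCN below 100 TPM, and light-phase replicate 2 lies alone in MGP.

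All 21 pairs of the 7 genes were correlated within each phase, 42 relations in all. No relation passed Benjamini-Hochberg adjustment (lowest adjusted p 0.15 for Pearson's r and 0.35 for Spearman's rho, exact permutation tests over 6 rats), and 6 had an unadjusted exact p for r below 0.05. The largest in the light phase was DCN with SPARC, with r = -0.98 (exact permutation p = 0.0042) and rho = -0.94 (p = 0.017), and r was -0.73 without replicates 2 and 6. The largest in the dark phase was OGN with MGP, with r = -0.97 (exact permutation p = 0.0069) and rho = -0.94 (p = 0.017), and r was -0.85 without replicates 3 and 6. In the light phase the same pair had r = 0.51 (exact permutation p = 0.33) and rho = 0.49 (p = 0.36), and r was -0.17 without replicates 2 and 6, so that its sign rests on those rats. MGP with SPARC had r = 0.86 in the light phase (exact permutation p = 0.040, rho 0.66 with p = 0.18), and r was -0.04 without replicates 2 and 4. THBS2 with PDGFRA had r = 0.83 in the dark phase (exact permutation p = 0.038, rho 0.83 with p = 0.058) and -0.23 in the light phase (p = 0.61, rho -0.09 with p = 0.92), where leaving out 1 rat at a time gave r from -0.75 to 0.17. The dark-phase r was 0.54 without replicates 1 and 6. THBS2 with SCX had r = -0.53 in the light phase (exact permutation p = 0.27, rho -0.60 with p = 0.24) and 0.53 in the dark phase (p = 0.33, rho 0.49 with p = 0.36). Leaving out 1 rat at a time gave r from -0.67 to -0.40 and from 0.15 to 0.76.

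The genes most like 3 of the members were ranked by Pearson's r over the 12 rats. It was computed on log2 levels after the mean of the phase was taken off, among 9252 genes that averaged at least 5 TPM. Those with a symbol are named. For THBS2 they were TUBA1C (r = 0.88), STON2 (0.81), ALKBH7 (0.80), RDH11 (0.78) and CGNL1 (0.77). For SCX they were TENT5A (r = 0.91, the highest of all genes), KIRREL2 (0.88), FKBP15 (0.87), SYNPO2L (0.86) and IQSEC2 (0.86). For OGN they were SUOX (r = 0.88), TRIP12 (0.82), NRP1 (0.81), NEDD9 (0.80) and PNRC1 (0.76). Most genes of this ranking have no symbol here, so the named genes held ranks from 1 to 16 and the genes between them stay unnamed. These correlations were chosen as the highest of many over 12 rats, are a description and carry no p. Within a single phase the lowest r of the named genes was 0.50, for RDH11 with THBS2 in the light phase. The ranking was not repeated without light-phase replicate 2, which lay at -0.65 for SCX and 1.145 for OGN in log2 units from the phase mean.

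Light-phase replicate 2 stood apart in genes of other cells as well. MGP, at 1607 TPM, was beyond the other light-phase rats (487.1 to 738.2 TPM), and so was BGN, the proteoglycan biglycan, at 115.3 TPM, and SPARCL1, a relative of SPARC, at 118.8 TPM. The pericyte transcript RGS5 was at 324.6 TPM there, the endothelial transcript PLVAP at 124.3 TPM and haemoglobin HBB at 5535 TPM, and TTR was at its lowest, 253700 TPM. Of 11 endothelial markers 2 had an identifier (PLVAP and FLT1), summing to 138.6 TPM in this rat, to 71.4 to 84.4 TPM in the other light-phase rats and to 72.1 to 113.4 TPM in the dark phase. Of 10 mural markers 2 had one (TAGLN and RGS5), summing to 420.5 TPM in this rat, to 170.1 to 205.3 TPM in the other light-phase rats and to 165.0 to 249.9 TPM in the dark phase. Of 9 macrophage markers CD74 alone had one, at 391.9 TPM in this rat and 208.6 to 294.7 TPM in the other light-phase rats, with 194.6 to 379.5 TPM in the dark phase. Of 6 blood markers HBB alone had one, at 1406 to 1956 TPM in the other light-phase rats and 839.4 to 2190 TPM in the dark phase. None of these matched markers was listed at 0, and no neuronal or astrocyte marker had an identifier. THBS2 in this rat, 23.1 TPM, was within the range of the other light-phase rats, and DCN and SCX were the lowest of the phase. The part of these other cells in the values of MGP, DCN and SCX was not tested. Without this rat the log2 differences were 1.48 for THBS2, 0.90 for SCX, -0.21 for DCN, 0.15 for OGN, 0.04 for PDGFRA and 0.04 for SPARC.

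**Figure D5:**
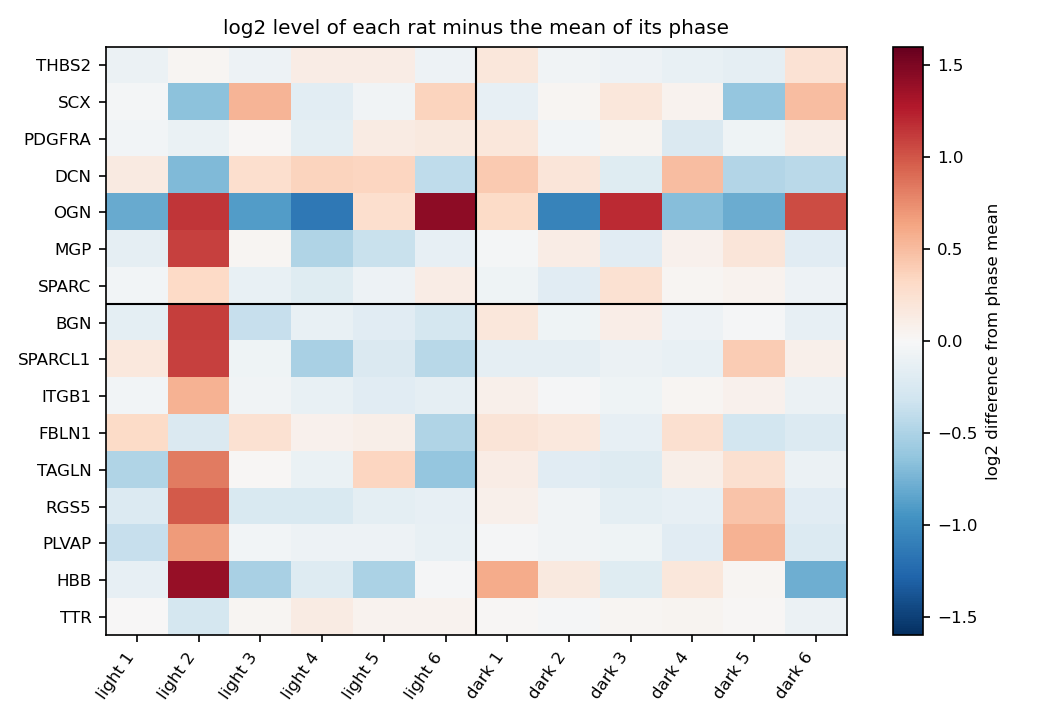
Log2 level of each rat minus the mean of its phase (colour, red above and blue below), for the 7 genes above the line and for 9 related or marker genes below it, with rats in columns. Light-phase replicate 2 is red for MGP, BGN, SPARCL1, RGS5, PLVAP and HBB and blue for SCX, DCN and TTR, while OGN alternates between rats of both phases.

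Of 157 further matrix genes in 8 lists (collagens, basement membrane, proteoglycans, adhesive glycoproteins, elastic fibres, collagen maturation, proteases and inhibitors), 31 had an identifier, 20 of them through the level table. Of these 20, 4 were called higher in dark-phase rats and 0 in light-phase rats, where 8.61% and 15.1% of all genes paired by level were. The median log2 difference of the 20 was 0.08, and 14 were positive, beside a median of -0.04 over all genes paired by level and -0.01 over all genes tested. The matrix genes called higher were MMP14, SERPINH1, FBLN1 and LOXL1. FBLN1 and LOXL1 were near the threshold, and the count of 4 fell to 2 without light-phase replicate 2, 4 or 5 or without dark-phase replicate 1, 2, 3 or 4.

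MMP14 encodes a membrane-bound metalloproteinase that cleaves collagen and activates MMP2. Its range was 104.1 to 130.0 TPM in light-phase rats (median 110.7) and 157.1 to 174.1 TPM in the dark phase (median 164.5), with no overlap. The log2 difference was 0.51 (standard error 0.05, limma FDR 1.7e-05). MMP2 itself, the gelatinase, was 137.2 to 180.8 TPM in light-phase rats and 127.3 to 157.5 TPM in the dark phase (log2 difference -0.14, FDR 0.24), and its inhibitor TIMP2 was 503.1 to 551.3 and 508.3 to 592.3 TPM (0.04, FDR 0.56). The proteases ADAMTS5, MMP15 and ADAMTS10 were paired only through the table of called genes, and are described without a test. ADAMTS5, an aggrecanase, was 5.84 to 8.42 TPM in light-phase rats and 9.88 to 11.4 TPM in the dark phase, MMP15 was 36.7 to 45.4 and 26.2 to 33.0 TPM, and ADAMTS10 was 7.59 to 13.7 and 5.05 to 8.95 TPM. The light-phase range of ADAMTS10 was 7.59 to 8.60 TPM without replicate 2.

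SERPINH1 encodes HSP47, the chaperone of procollagen. It was 206.2 to 276.4 TPM in light-phase rats (median 221.2) and 280.8 to 294.9 TPM in the dark phase (median 291.3), with no overlap. The log2 difference was 0.30 (standard error 0.06, limma FDR 0.0030), and it was 0.19 with an FDR of 0.25 when the FPKM to TPM ratio entered the fit. P3H3, the other collagen maturation gene paired by level, was not called. It was 50.9 to 56.6 TPM in light-phase rats and 47.5 to 57.3 TPM in the dark phase (log2 difference -0.08, limma FDR 0.32). P4HA1, PLOD3 and PLOD2, enzymes that modify procollagen lysine and proline, were paired only as called genes. P4HA1, a prolyl hydroxylase subunit, had means of 31.0 ± 7.53 TPM in light-phase rats and 42.7 ± 4.77 TPM in dark-phase rats (SD, n = 6), PLOD3, a lysyl hydroxylase, had 36.0 ± 2.94 and 41.6 ± 2.54 TPM, and PLOD2 had 25.4 ± 2.15 and 28.0 ± 1.96 TPM.

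FBLN1, an elastic fibre and basement membrane glycoprotein, was 47.8 to 85.8 TPM in light-phase rats and 77.8 to 111.5 TPM in the dark phase (log2 difference 0.45, standard error 0.14, limma FDR 0.039). LOXL1, a lysyl oxidase that crosslinks elastin, was 65.3 to 79.4 and 78.4 to 91.8 TPM (0.18, standard error 0.06, FDR 0.043). In both genes the ranges of the phases overlapped. LTBP3, which binds latent transforming growth factor beta, did not pass the test (0.11, FDR 0.075), and passed without light-phase replicate 3 and with unscaled TPM (lowest FDR 0.030). LOXL2, another lysyl oxidase, paired as a called gene, was 5.93 to 11.2 TPM in light-phase rats and 9.44 to 12.1 TPM in the dark phase, and without light-phase replicate 2 the light-phase rats reached 6.65 TPM.

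The other small leucine-rich proteoglycans paired by level, PRELP, FMOD and BGN, were not called. PRELP was 310.5 to 351.2 TPM in light-phase rats and 326.9 to 402.4 TPM in the dark phase (log2 difference 0.08, limma FDR 0.33), and FMOD, fibromodulin, was 260.3 to 322.9 and 283.1 to 340.9 TPM (0.11, FDR 0.35; 0.058 with FDR 0.57 without light-phase replicate 2). BGN was 39.6 to 115.3 and 37.2 to 46.2 TPM (-0.35, FDR 0.26), and -0.13 without light-phase replicate 2 (FDR 0.18). Of the collagens paired by level, COL8A1 and COL8A2, chains of a network-forming collagen, had differences of 0.10 (FDR 0.43; 0.048 without dark-phase replicate 2) and 0.14 (FDR 0.18), and COL9A3 had -0.03 (FDR 0.85). COL14A1, a collagen that associates with fibrils, was paired as a called gene and was 2.16 to 3.09 TPM in light-phase rats and 2.79 to 4.12 TPM in the dark phase. LAMB2, a laminin chain, had a difference of 0.08 (FDR 0.43). Among relatives of the matricellular members, SPARCL1 had -0.06 (FDR 0.89; 0.16 with FDR 0.44 without light-phase replicate 2), and SPOCK2 had 0.15 (FDR 0.24). THBS1, thrombospondin 1, was paired as a called gene and is given without a test, at 5.47 to 8.70 TPM in light-phase rats and 6.64 to 12.9 TPM in the dark phase. Light-phase replicate 2 alone made these THBS1 ranges overlap, as the other light-phase rats reached 6.53 TPM.

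Thrombospondins act through cell surface receptors. Of 25 receptor and integrin genes listed, 8 were paired by level, and 4 of them were called higher in dark-phase rats and 0 in light-phase rats, beside 8.61% and 15.1% in the background. LRP1, the endocytic receptor that clears thrombospondins, was 51.3 to 58.4 TPM in light-phase rats and 64.0 to 73.7 TPM in the dark phase (log2 difference 0.30, standard error 0.04, limma FDR 0.00049). ITGB8, an integrin chain that activates transforming growth factor beta, was 61.3 to 75.0 and 79.6 to 103.4 TPM (0.41, standard error 0.07, FDR 0.0015). SDC4, a heparan sulfate proteoglycan of the cell surface, was 72.2 to 77.9 and 85.9 to 96.4 TPM (0.25, standard error 0.04, FDR 0.00079), and SCARB2, a lysosomal membrane protein, was 129.5 to 145.7 and 149.4 to 182.6 TPM (0.20, standard error 0.05, FDR 0.019). In each of the 4, named because they were called, the ranges of the phases did not overlap, as in 13.4% of all genes paired by level. None of the 4 is particular to fibroblasts. Of the 12 epithelial markers 6 were called, with the prolactin receptor PRLR (log2 difference 0.66, FDR 1.8e-05), KL (0.28, FDR 0.0011), OTX2 (0.24, FDR 0.0028) and CLIC6 (0.16, FDR 0.018) higher in the dark phase and AQP1 (-0.39, FDR 0.0027) and SLC4A5 (-0.26, FDR 0.0021) higher in the light phase. The other 6 (TTR, FOLR1, KCNJ13, CLDN2, ENPP2 and KRT18) were not called, with differences from -0.16 for KRT18 to 0.10 for ENPP2, and the median of the 12 was 0.012. The part of the epithelium in the values of the receptor, signalling and matrix genes was not tested. ITGA8, paired as a called gene, was 4.96 to 11.4 TPM in light-phase rats (up to 6.63 TPM without replicate 2) and 3.15 to 4.83 TPM in the dark phase.

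Transforming growth factor beta and bone morphogenetic proteins drive matrix synthesis, and SCX is among their known targets. Of 34 genes of this signalling listed, 7 were paired by level, and 2 were called higher in dark-phase rats and 0 in light-phase rats, beside 8.61% and 15.1% of all genes paired that way. TGFBR2, the ligand-binding receptor, was 77.1 to 90.0 TPM in light-phase rats and 92.5 to 104.6 TPM in the dark phase (log2 difference 0.21, standard error 0.05, limma FDR 0.012). BMP7 was 74.5 to 84.6 and 81.1 to 99.3 TPM (0.19, standard error 0.04, FDR 0.011), and TGFB2 did not pass the test at 134.2 to 181.9 and 170.1 to 254.7 TPM (0.30, FDR 0.061), and its FDR was 0.030 at the lowest, passing without dark-phase replicate 5 and with unscaled TPM. SMURF2, a ubiquitin ligase that limits this signalling and was paired as a called gene, was 14.7 to 20.5 TPM in light-phase rats (up to 18.4 TPM without replicate 2) and 20.2 to 22.2 TPM in the dark phase. With the FPKM to TPM ratio in the fit, TGFBR2, BMP7, ITGB8 and SCARB2 no longer passed (FDR 0.096, 0.25, 0.053 and 0.18) at log2 differences of 0.26, 0.17, 0.46 and 0.23, while LRP1, SDC4 and MMP14 did (FDR 0.043, 0.038 and 0.0068). PDGFA, a ligand of PDGFRA and paired as a called gene, was 19.7 to 28.2 TPM in light-phase rats (up to 22.1 TPM without replicate 2) and 14.2 to 23.1 TPM in the dark phase, and the other ligands of this family had no identifier.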

How the data were processed

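Choroid plexus of 12 rats, 6 per phase, was measured with 1 library per rat. Per the submitters' processing notes, the authors aligned reads with STAR 2.7.9a to Rnor_6.0 and quantified Ensembl 104 genes with RSEM 1.3.3. The deposited TPM values were made by the authors and were used as the level of each gene. The deposited FPKM values were used for relative depth, for the FPKM to TPM ratio of each library's totals, and as an alternative. As neither is a count, the count test named in the design was not used.

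TPM was scaled by a trimmed mean of ratios (30% of ratios and 5% of levels trimmed) and transformed as log2(TPM + 0.5), which understates the change of low genes, and genes averaging 1 TPM or more over the rats were fitted with limma 3.58.1 (R 4.3.3) on phase alone, with Benjamini-Hochberg adjustment over 12513 genes. Printed TPM are unscaled. Exact permutation tests used scipy 1.17.1, with Python 3.11.15, numpy 2.4.6, pandas 2.3.3 and matplotlib 3.10.9. The fit was tested on simulated data, and the outcome is not given here.

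The members and lists were chosen with earlier results of these data known. Symbols came from gene tables of the study, held in part, for 3700 genes. All members with an identifier are named, with the 4 genes of smallest p and the most abundant gene of each related matrix, signalling or leptomeningeal list, the 5 genes most like THBS2, SCX and OGN, and genes in which a library stands apart. Markers of other cell types were taken as counts and summed levels. Other genes named were chosen after their values were seen. Alternatives were scalings, pseudocounts, filters, FPKM, array weights, robust variances, covariates, a replicate block and leaving out each rat. No pair of libraries was identical (r 0.959 to 0.983 on log2 values). A further marker gene was left out of the marker lists and is not reported here.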

Additional observations from a re-analysis of the deposited data

Results flagged for a closer look

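In 160 groups of 6 rats (80 genes in 2 phases), 20 had a rat at the end of the range that stood apart from the others by more than Dixon's critical share of the whole range at the 95% level. That level is set for about 1 in 20 groups of independent, normally distributed values. The 80 genes were chosen and share their rats, and the share over all genes was not computed, so the count cannot be read against that rate. Of the 20 groups found, 13 were in light-phase replicate 2. Among the 7 members there was 1 such group of 14, MGP at 1607 TPM in light-phase replicate 2.

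The same rat stood highest in the matrix genes BGN (115.3 TPM), SPARCL1 (118.8 TPM), ADAMTS10 (13.7 TPM), LOXL2 (11.2 TPM) and THBS1 (8.70 TPM), in the integrins ITGB1 (88.5 TPM) and ITGA8 (11.4 TPM), in the ligand PDGFA (28.2 TPM), and in PLVAP (124.3 TPM), RGS5 (324.6 TPM) and HBB (5535 TPM). It stood lowest in TTR (253700 TPM).

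In other light-phase rats, LTBP3 (67.3 TPM) and PLOD3 (41.6 TPM) stood highest in replicate 3. In the dark phase, ADAMTS5 stood highest in replicate 2 (11.4 TPM) and PLOD3 in replicate 3 (46.4 TPM). Dark-phase replicate 5 stood highest in PLVAP (96.8 TPM) and RGS5 (212.3 TPM) and lowest in FMOD (283.1 TPM). It was also the dark-phase rat with the lowest SCX (38.0 TPM) and DCN (81.6 TPM) and the highest MGP (880.2 TPM).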

How the results depend on the processing

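THBS2 kept a log2 difference of 1.42 to 1.501 and SCX one of 0.90 to 1.15 over 24 alternatives, and MMP14, LRP1 and SDC4 passed the test in each of them. SERPINH1, ITGB8, SCARB2, TGFBR2 and BMP7 lost their call only when the FPKM to TPM ratio entered the fit, FBLN1 in 10 and LOXL1 in 12 of the alternatives. With that ratio the log2 differences were 0.19 for SERPINH1, 0.46 for ITGB8, 0.23 for SCARB2, 0.26 for TGFBR2, 0.17 for BMP7, 0.58 for FBLN1 and 0.23 for LOXL1, as large as in the fit without it or larger, except in SERPINH1 and BMP7. The ratio was 0.953 to 0.987 in the light phase and 0.934 to 0.960 in the dark phase, so the covariate and the phase overlap in what they describe. With it, 341 genes were called (209 higher in the dark phase, 132 in the light phase) and 1 of the related matrix genes, and the sign of uncalled differences turned in DCN (0.49), MGP (-0.42), PDGFRA (-0.045) and COL9A3 (0.045). OGN (-1.26), SPARC (-0.20), SPARCL1 (-0.73) and BGN (-0.83) moved further below 0 with it, with no call. Other uncalled differences became larger with it in FMOD (0.25), TIMP2 (0.13), COL8A1 (0.20), COL8A2 (0.27) and LTBP3 (0.17). They became smaller in MMP2 (-0.069) and SPOCK2 (0.081), and none of these was called with it. Without a filter on low values, 2 related matrix genes were called. Array weights turned OGN (0.021), SPARC (0.023) and SPARCL1 (0.066), and unscaled TPM turned SPARC (0.0043), and the cause was not tested. None of these turned values passed the test.

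Leaving out 1 rat at a time gave 1709 to 2260 called genes, with 870 to 1136 higher in dark-phase rats and 839 to 1124 higher in light-phase rats, and 2 to 5 related matrix genes. DCN then ran from -0.21 to 0.024, OGN from -0.32 to 0.21, MGP from -0.032 to 0.28, SPARC from -0.069 to 0.044, COL9A3 from -0.078 to 0.020 and SPARCL1 from -0.16 to 0.16. Uncalled differences that kept their sign but moved by over 1.5 times were those of PDGFRA (0.023 to 0.11), BGN (-0.43 to -0.13), FMOD (0.058 to 0.15), PRELP (0.047 to 0.11), COL8A1 (0.048 to 0.16), LAMB2 (0.044 to 0.12), SPOCK2 (0.088 to 0.20), MMP2 (-0.17 to -0.091) and TIMP2 (0.023 to 0.068). The SD between rats ran from 0.20 to 0.63 for light-phase MGP, from 0.12 to 0.21 for light-phase SPARC, from 0.096 to 0.16 for dark-phase SPARC and from 0.23 to 0.41 for dark-phase SCX. 

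Rats of the phases share replicate numbers, and the labels do not say whether the numbers mark a batch. Deviations of same-numbered rats from their phase mean did not correlate (r -0.11 to 0.047, 0 of 6 best with their own number). Such a correlation over many genes cannot exclude a batch that touches few genes. With the replicate number as a block, 1599 genes were called (808 higher in the dark phase, 791 in the light phase), 3 of the related matrix genes among them, and no member changed its call. Depth in reads is unknown, so counting error could not be separated from the spread between rats, and with 6 rats per phase the intervals of OGN, DCN and MGP do not exclude moderate differences in either direction. Most matrix and stromal symbols had no identifier, the fibrillar collagens among them, and the matrix genes paired by level are the more abundant ones.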

Other observations

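Of 15 genes listed as leptomeningeal, 4 had an identifier (CRABP2, PTGDS, IGFBP2 and IGF2). They summed to 13370 to 16850 TPM in the light phase and 14250 to 15740 TPM in the dark phase. IGFBP2, PTGDS and IGF2 ranked 8, 10 and 30 of all genes by mean TPM. Which cells made them was not tested, so the sum does not measure leptomeningeal cells. None of the 4 was called, where 23.7% of all genes paired by level were, and their median log2 difference was 0.0049 beside -0.04 over all genes paired by level. PTGDS, the prostaglandin D synthase of cerebrospinal fluid, was 5337 to 7840 TPM in the light phase and 5645 to 7659 TPM in the dark phase. IGFBP2, a binding protein of insulin-like growth factors, was 5718 to 7300 and 5680 to 6953 TPM. CRABP2, which carries retinoic acid, was 57.1 to 96.4 and 61.9 to 94.1 TPM.

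Among mural markers TAGLN, a smooth muscle actin-binding protein, was higher in the light phase, with 32.6 to 95.8 TPM (median 48.8) against 27.0 to 37.6 TPM (median 31.1) in the dark phase (log2 difference -0.73, standard error 0.21, limma FDR 0.027). Without light-phase replicate 2 the difference was -0.57 (FDR 0.027), and the call was lost without light-phase replicate 5, without dark-phase replicate 2, 3 or 6, and with the FPKM to TPM ratio in the fit (log2 difference -0.89, FDR 0.18). RGS5, the other mural marker with an identifier, was not called. In both genes light-phase replicate 2 was the highest of the 12 rats.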
